A study of Mus musculus with 156 samples.

Results

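The comparison of the Firre transgene lines with their own control lines during the first hour after doxycycline rested on 24 of the 156 RNA-seq libraries of the series, all from cultured mouse embryonic stem cells. The libraries were chosen by their labels alone, as those of the short time course sampled at 0, 30 and 60 min. In the KO background (the KO pair), 6 libraries of the line labelled Firre KO / Firre inducible transgene were set against 6 libraries of the line labelled Firre KO. In the WT background (the WT pair), 6 libraries of the line labelled Firre inducible transgene were set against 6 libraries of the line labelled WT. Each line had 2 libraries at each time, and the control lines were treated with doxycycline as the transgene lines were. All 4 lines grew without feeders on gelatin in serum medium with LIF and the inhibitors PD0325901 and CHIR99021, a mixture that blocks MEK and GSK3. The comparison asks which differences between a transgene line and its control were already present before, or within an hour of, induction, and which of them both backgrounds had. The promoter of the transgene, the clonal origin of each line and what separates the replicates of a time point are not given in the sources used here, so p-values measure the spread between these libraries, which may be technical. A difference between a transgene line and its control cannot be told apart from any other difference between those cell lines, such as clonal history.

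Firre is a long noncoding RNA made from the X chromosome. It stays in the nucleus, carries repeats that bind the nuclear matrix factor HNRNPU, and contacts loci on several chromosomes. Embryonic stem cells in this medium resemble the naive epiblast. Cells of such cultures pass at times through a state that resembles the 2-cell embryo, marked by the Zscan4 and Tcstv gene clusters, and imprinted genes are known to differ between stem cell lines.

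Total estimated counts ranged from 23132991 to 37195019 per library, and 18009 genes were tested. The summed level of 8 markers of embryonic stem cell identity was 7035 to 7928 TPM in the KO transgene line and 7249 to 7790 TPM in the KO control line. It was 7476 to 7643 TPM in the WT transgene line and 7672 to 7902 TPM in the WT control line, which did not overlap. In edgeR's test of the counts, however, none of the 8 markers passed as lower in the WT pair. Zfp42 passed as higher (log2 fold change 0.09, adjusted p = 0.03115), though in only 5 of 12 fits that each left out 1 WT library. Markers of primitive endoderm (5 genes, 4.02 to 6.17 TPM summed), trophoblast (4 genes, 4.69 to 7.98 TPM), fibroblasts (5 genes, 1.88 to 4.52 TPM) and primed epiblast (3 genes, 2.81 to 3.96 TPM) were low in all 24 libraries. None of these markers was at 0 in all libraries of a line.

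Firre itself (ENSMUSG00000085396.7, chromosome X, 50555744 to 50635321 on the minus strand of mm10) checked the labels. In the KO pair at 0 min, Firre was at 1.38 and 1.94 TPM in the transgene line and 1.09 and 1.62 TPM in the control line. At 30 min the KO transgene line had 129.9 and 142.3 TPM, against 1.22 and 0.726 TPM in the KO control line, and at 60 min it had 269.2 and 282.2 TPM, against 0.920 and 0.935 TPM. The groups did not overlap at 30 and 60 min. At 0 min the WT transgene line had 45.5 and 41.4 TPM, against 22.9 and 30.2 TPM in the control line. At 30 min it had 422.5 and 424.1 TPM, against 23.3 and 26.2 TPM, and at 60 min 905.0 and 812.6 TPM, against 22.9 and 22.8 TPM. The WT transgene line was thus the higher one at each time.

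In edgeR's quasi-likelihood fit of the counts, the log2 fold change of Firre between transgene and control line in the KO pair was 0.24 ± 0.31 at 0 min (SE, adjusted p = 0.817), 7.29 ± 0.18 at 30 min and 7.87 ± 0.17 at 60 min. For the WT lines it was 0.02 ± 0.10 at 0 min (adjusted p = 0.962), 2.96 ± 0.11 at 30 min and 4.01 ± 0.11 at 60 min. The adjusted p at 30 and 60 min was at most 1.05e-28 in both backgrounds. At 0 min in the WT pair the counts therefore gave no difference that passed the test, while the deposited TPM, which also adjust for transcript length, were higher in both transgene libraries. The reason for that gap was not tested. In the long time course, whose 0 min samples have 3 libraries per line, the 0 min difference passed in both backgrounds (KO 1.35 ± 0.28, adjusted p = 6.81e-04; WT 0.31 ± 0.04, adjusted p = 6.68e-08).

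**Figure D1:**
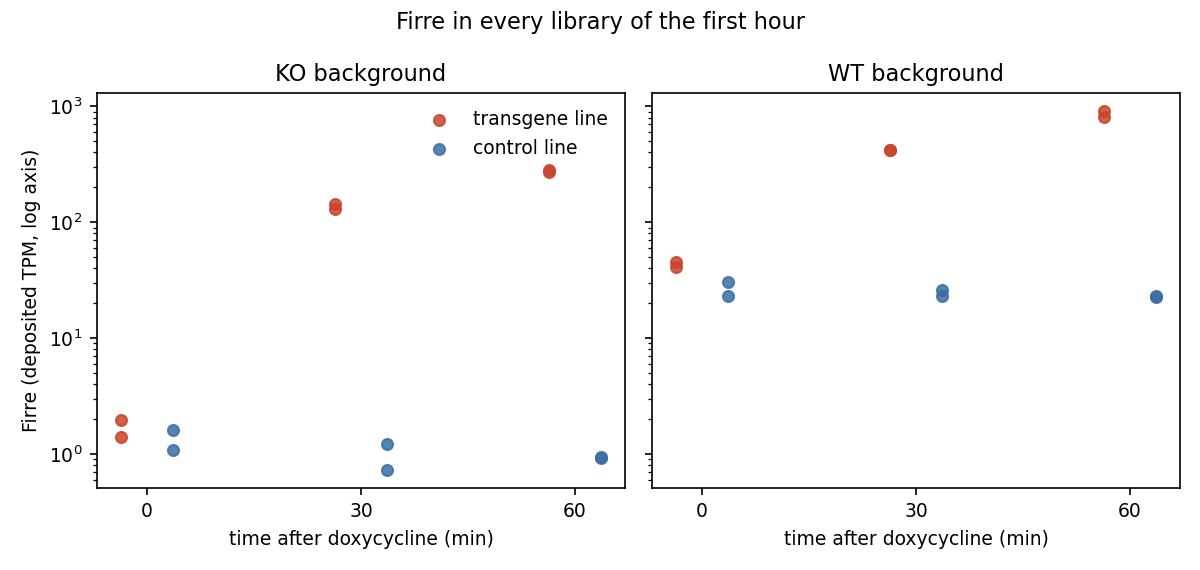
Firre in each of the 24 libraries, in TPM on a log axis, against minutes after doxycycline, with the KO background on the left and the WT background on the right. The KO transgene line reached 269.2 and 282.2 TPM at 60 min and the WT transgene line 905.0 and 812.6 TPM, while the KO control line lay between 0.726 and 1.62 TPM and the WT control line between 22.8 and 30.2 TPM.

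Taking the mean over the 3 times, 507 of 18009 genes differed between transgene and control line in the KO pair (2.82% called at an adjusted p under 0.05), of which 267 were higher (1.48%) and 240 lower (1.33%). Between the WT lines 3016 genes differed (16.7% called), with 1526 higher (8.47%) and 1490 lower (8.27%). Most differences were small: the median size of the log2 fold change was 0.193 among the genes that passed in the KO pair and 0.214 among those in the WT pair. A log2 size of 0.58 or more was reached by 34 genes in the KO pair and 409 in the WT pair. The median over all tested genes was -0.003 in the KO pair and 0.004 in the WT pair. With limma on log2 of the deposited TPM, 49 KO genes passed, 15 of them higher and 34 lower, and 1421 WT genes, 257 of them higher and 1164 lower, with a median over all genes of -0.04 in the WT pair. The balance of higher and lower genes thus depended on whether counts or TPM were used. With only the 12 libraries of a background in the fit, 94 genes passed in the KO pair and 3147 in the WT pair. Leaving out 1 library at a time gave 201 to 626 genes in the KO pair, the lowest without the KO transgene 0 min replicate 1, and 1918 to 3259 in the WT pair, the lowest without the WT control 0 min replicate 2.

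Line differences were present at 0 min. Tested singly, 0, 30 and 60 min gave 29, 16 and 18 genes in the KO pair (0.161%, 0.0888% and 0.1% called) and 528, 461 and 373 genes in the WT pair (2.93%, 2.56% and 2.07% called), each from 2 against 2 libraries. Of the genes that passed over the 3 times, 99.0% in the KO pair and 98.9% in the WT pair had the same sign at each time, a share the choice by their mean raises. Over all genes tested it was 36.1% in the KO pair and 53.7% in the WT pair. The 6 transgene libraries did not overlap the 6 control libraries for 253 genes in the KO pair (1.4%) and 1584 genes in the WT pair (8.8%).

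A change of the line difference between 0 min and the later times passed for 2 genes in each background (0.0111% called in each). Both backgrounds had Firre, whose difference moved by 7.05 at 30 min and 7.63 at 60 min in the KO pair and by 2.94 and 3.99 in the WT pair. The other gene of the KO background was Ppm1b, a protein phosphatase, whose difference was 0.31 higher at 30 min than at 0 min and 0.02 higher at 60 min (adjusted p = 0.0289). The other gene of the WT background was Fgfbp3, a secreted binding protein of fibroblast growth factors, named after its values were seen because its mean CPM was under 1. Fgfbp3 was at 0.733 and 1.06 TPM at 0 min in the WT transgene line, 2.29 and 1.65 TPM at 30 min and 2.36 and 2.38 TPM at 60 min. The WT control line had 1.04 and 0.828 TPM at 0 min, 0.634 and 0.437 TPM at 30 min and 0.698 and 0.581 TPM at 60 min. The WT difference of Fgfbp3 was -0.04 at 0 min, 1.96 at 30 min and 1.91 at 60 min (adjusted p of the change = 0.019), and in the KO pair its difference over the 3 times was 0.04 ± 0.20 (adjusted p = 0.972). DESeq2 called 1 gene per background for the change to 60 min, and 738 genes in the KO pair and 409 in the WT pair had an unadjusted p under 0.05. Leaving out 1 library at a time gave 1 to 2 genes in the KO pair and 1 to 3 in the WT pair.

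After Firre, the named genes with the largest differences in the KO pair were lower in the transgene line. Usp26, an X-linked ubiquitin protease close to the Firre locus, was at 1.91 to 2.98 TPM (median 2.30) in the KO transgene line, against 4.45 to 5.89 TPM (median 5.02) in the KO control line. All 6 transgene libraries were under all 6 controls, and the log2 fold change was -1.13 ± 0.07 (adjusted p = 1.96e-19). Usp26 was at 2.75 to 3.34 TPM in the WT transgene line and 2.31 to 3.25 TPM in the WT control line, with 0.13 ± 0.07 (adjusted p = 0.221). Nxf3, an X-linked member of the mRNA export factor family, was at 0.646 to 1.54 TPM in the KO transgene line, against 2.07 to 3.09 TPM in the KO control line, again without overlap (-1.04 ± 0.12, adjusted p = 2.49e-09). Its WT difference was -0.16 (adjusted p = 0.327).

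Dppa3, Pramel7 and Pramel6, known from germ cells and the early embryo, were lower in the KO transgene line too. Dppa3 (Stella), a maternal factor that protects methylation in the zygote and a naive pluripotency marker, was at 8.65 to 11.2 TPM (median 8.79) in the transgene line, against 11.5 to 14.7 TPM (median 13.6) in the control line (-0.51 ± 0.10, adjusted p = 5.97e-04). The ranges did not overlap. Pramel7, a leucine-rich repeat protein that supports ground-state pluripotency, was at 6.01 to 8.54 TPM in the KO transgene line, against 9.58 to 11.1 TPM in the KO control line (-0.59 ± 0.07, adjusted p = 3.91e-09). Its relative Pramel6 fell by 0.67 ± 0.11 on the log2 scale (adjusted p = 1.34e-04). The WT differences were smaller, -0.20 ± 0.06 for Pramel7 (adjusted p = 0.0214) and -0.28 ± 0.10 for Pramel6 (adjusted p = 0.0403), and both were lost when single WT libraries were left out. Sycp1, a structural protein of the meiotic chromosome axis, was the 1 of 15 germline genes that passed in the KO pair (-0.34 ± 0.07, adjusted p = 0.0035), where 1.33% of all genes were called lower. Cntnap2, a neuronal cell adhesion protein, fell by 0.60, and Cpne8, a calcium-dependent membrane-binding protein, by 0.63.

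Genes that were higher in the KO transgene line differed less. Besides Firre, the rule for named genes gave Lrfn3 (log2 fold change 0.59), Six5 (0.57), Lmod1, Rin3 and Erdr1 (0.56 each), Cntn2 and Crhr2 (0.50 each), Zfp362 (0.48) and Cpne1 (0.46). Erdr1, Cpne1 and Zfp362 passed whichever single library was left out. Crhr2, a receptor of corticotropin-releasing peptides, had an adjusted p of 0.049 and passed in 1 of 12 fits that each left out 1 KO library. On log2 TPM the calls of Lrfn3, Six5, Lmod1, Rin3, Cntn2, Crhr2, Zfp362, Cpne8 and Sycp1 were lost.

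The line differences of the WT pair were more numerous and larger, with 137 genes at a log2 size of 1 or more. Wdfy1, an endosomal adaptor of Toll-like receptor signalling, was at 4.02 to 6.10 TPM (median 5.32) in the transgene line, against 10.3 to 14.5 TPM (median 13.0) in the control line. The ranges were apart, and the log2 fold change was -1.56 ± 0.05 (adjusted p = 1.86e-35). In the KO pair Wdfy1 was at 15.2 to 19.6 TPM in the transgene line and 16.1 to 18.9 TPM in the control line (-0.02). Snx32, a sorting nexin, was at 0.316 to 0.618 TPM in the WT transgene line, against 0.893 to 1.41 TPM in the WT control line (-1.58 ± 0.15, adjusted p = 3.32e-13). Foxn4 (-1.15), a forkhead transcription factor, Trim30d and Pramef17 (-1.08 each), the linker histone gene H1f1 (-1.07), Calml4 (-0.86) and the peptide transporter Slc15a2 (-0.85) were lower as well.

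Among the higher genes of the WT transgene line, Cd59a, which protects cells from complement, was at 4.19 to 5.85 TPM (median 5.23), against 0.973 to 2.79 TPM (median 1.37) in the control line. No transgene library fell within the control range, and the log2 fold change was 1.69 ± 0.14 (adjusted p = 1.97e-15). Rims2, a scaffold of the presynaptic active zone, was at 9.88 to 12.2 TPM, against 5.35 to 7.01 TPM in the WT control line (1.01 ± 0.06, adjusted p = 5.94e-24). The apoptosis-related gene Bcl2l15 (0.95), Tmem125 (0.80) and Cyp1b1 (0.79), a cytochrome P450, were higher too. Rps27, a ribosomal protein gene, had 1.07 ± 0.37 (adjusted p = 0.0395), but its groups overlapped and it passed in 4 of 12 fits that each left out 1 WT library. On log2 TPM the calls of Slc15a2, Tmem125, Cyp1b1 and Rps27 were lost.

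Both backgrounds had 119 genes that passed in the same direction, 62 higher and 57 lower. These were 23.5% of the KO genes, where 8.47% of all genes were called higher and 8.27% lower in the WT pair. They were 3.9% of the WT genes, where 1.48% of all genes were called higher and 1.33% lower in the KO pair. The overlap itself was not tested. The number of shared genes was 18 with limma on log2 TPM and 34 with only the 12 libraries of a background in the fit. Of the 119 genes, 39 passed in every fit that left out 1 library. Those fits gave 59 to 165 shared genes, the lowest without the KO transgene 0 min replicate 1. Mid1, a microtubule-associated ubiquitin ligase gene that crosses the pseudoautosomal boundary of the mouse X chromosome, had the largest shared difference in the WT pair among the named genes after Firre. Mid1 was at 22.6 to 28.3 TPM (median 24.7) in the KO transgene line, against 17.2 to 18.6 TPM (median 17.9) in the KO control line. It was at 19.04 to 24.96 TPM (median 22.7) in the WT transgene line, against 4.42 to 6.32 TPM (median 5.81) in the WT control line. The WT control line was therefore the one that stood apart, with 6 libraries under every library of the other 3 lines. The log2 fold change was 0.45 ± 0.05 in the KO pair (adjusted p = 1.8e-09) and 2.15 ± 0.06 in the WT pair (adjusted p = 6.11e-41).

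Among the shared lower genes, Cyb5b, a cytochrome b5 of the outer mitochondrial membrane, was lower to a like degree in both backgrounds. It was at 67.8 to 72.4 TPM in the KO transgene line, against 77.5 to 85.3 TPM in the KO control line, and 70.4 to 74.9 TPM in the WT transgene line, against 84.7 to 88.5 TPM in the WT control line. Neither pair overlapped, and the log2 fold changes were -0.24 ± 0.03 (KO, adjusted p = 1.51e-09) and -0.27 ± 0.03 (WT, adjusted p = 2.22e-12).

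Rab4a, a small GTPase of endosomal recycling, was at 34.8 to 37.7 TPM in the KO transgene line, against 28.2 to 31.4 TPM in the KO control line (0.23 ± 0.04, adjusted p = 4.65e-04). For the WT lines it was at 35.1 to 40.7 TPM, against 30.9 to 34.9 TPM (0.29 ± 0.04, adjusted p = 2.48e-07). Platr15, a noncoding transcript of pluripotent cells, was at 215.7 to 240.3 TPM in the KO transgene line and 262.6 to 287.5 TPM in the KO control line (-0.26, adjusted p = 1.48e-07). It was at 210.9 to 248.0 TPM in the WT transgene line and 362.3 to 412.7 TPM in the WT control line (-0.67, adjusted p = 1.52e-25). The surface peptidase gene Dpp4 fell by 0.26 on the log2 scale in the KO pair and by 0.22 in the WT pair, its KO call being lost on log2 TPM. The Y-linked helicase gene Ddx3y had 0.21 in the KO pair and 0.22 in the WT pair.

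**Figure D2:**
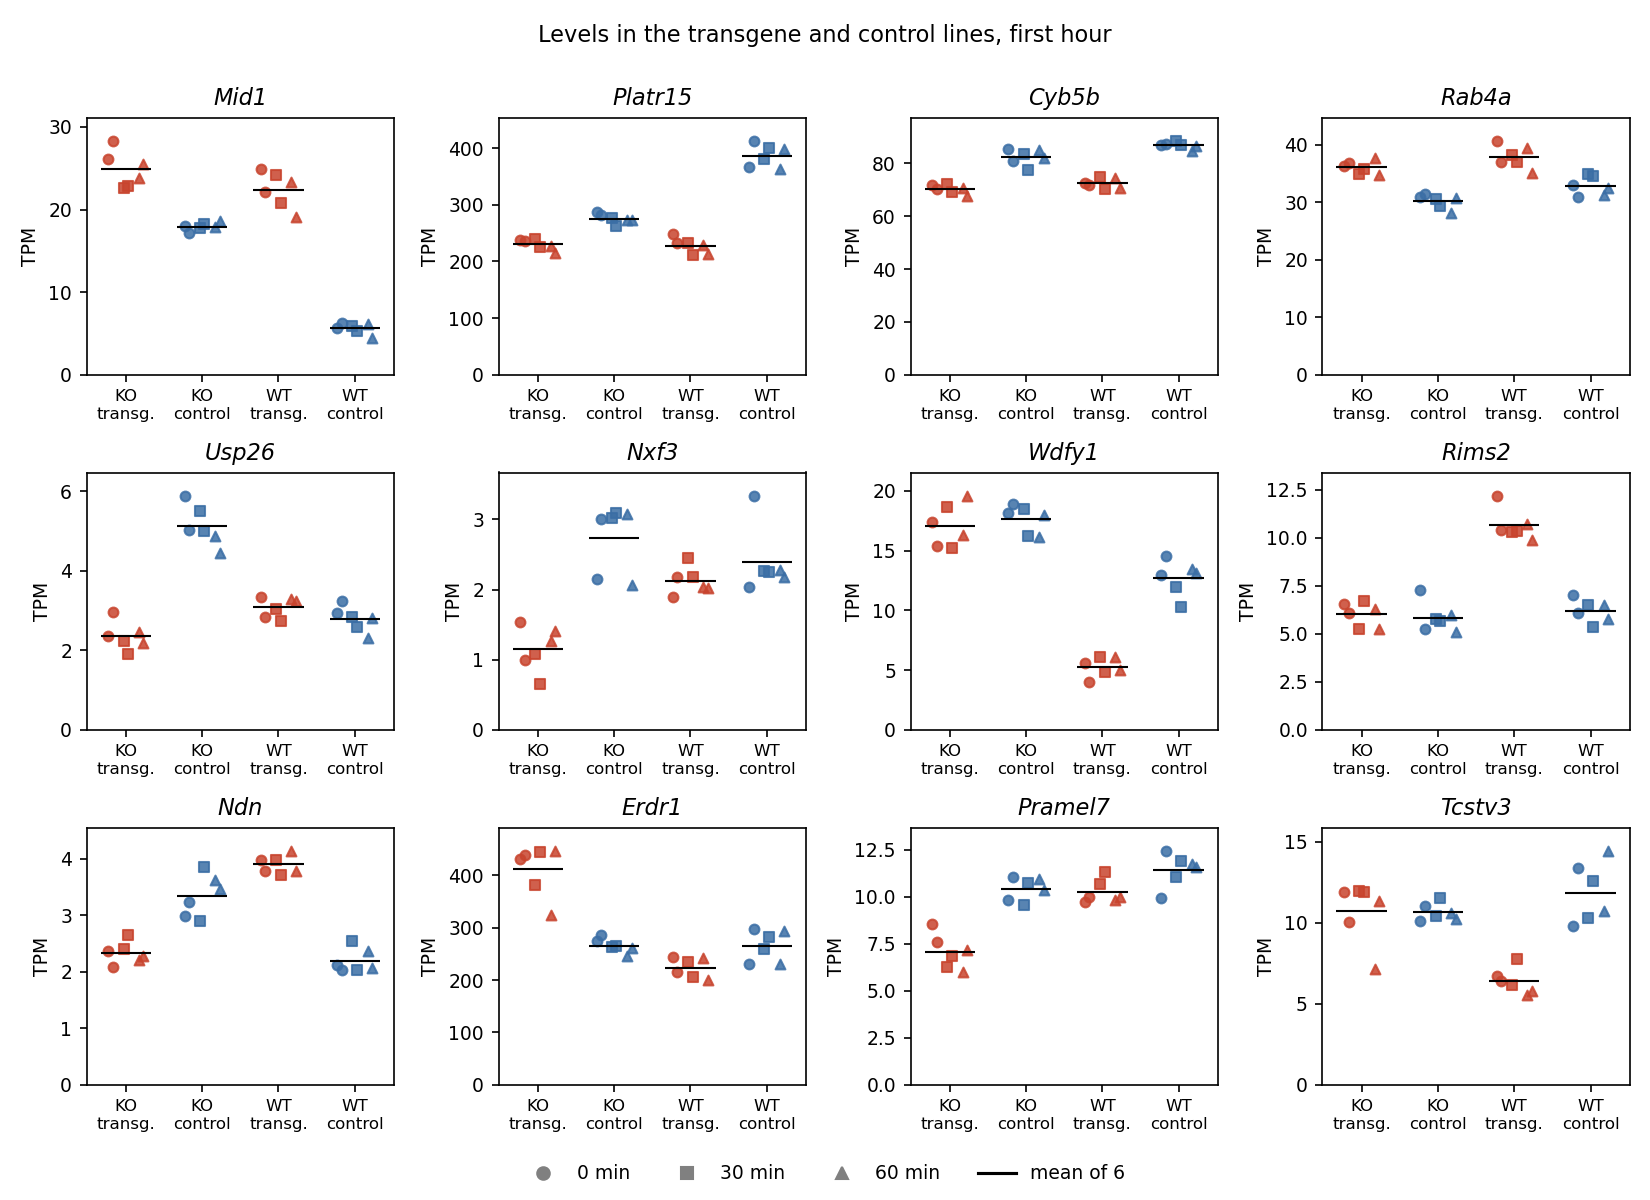
TPM of 12 genes in the 24 libraries, each panel with the KO transgene, KO control, WT transgene and WT control lines from left to right; the marker shape gives the time and the line the mean of 6 libraries. Mid1 and Cyb5b separated transgene from control in both backgrounds, Usp26 and Nxf3 in the KO pair and Wdfy1 and Rims2 in the WT pair, whereas Ndn and Erdr1 went opposite ways.

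A further 57 genes, 1.9% of the WT genes, passed in both backgrounds in opposite directions. Of these, 17 were higher in the KO transgene line and lower in the WT transgene line, and 40 the other way round. Among all genes, 1.48% were called higher and 1.33% lower in the KO pair. Erdr1, a pseudoautosomal gene, was at 324.9 to 446.5 TPM in the KO transgene line, against 245.9 to 285.0 TPM in the KO control line (0.56, adjusted p = 0.00348). Erdr1 was, in the WT pair, at 199.3 to 244.8 TPM in the transgene line, against 229.8 to 298.1 TPM in the control line (-0.52, adjusted p = 0.00183), where the TPM ranges overlapped and the call was lost on log2 TPM. Ndn, an imprinted gene of the Prader-Willi region made from the paternal copy, was at 2.09 to 2.66 TPM in the KO transgene line, against 2.90 to 3.85 TPM in the KO control line (-0.52, adjusted p = 4.71e-07). In the WT pair Ndn was at 3.71 to 4.14 TPM, against 2.02 to 2.54 TPM (0.85, adjusted p = 7.45e-16). The KO minus WT difference itself passed for 1408 genes (7.82% called), 728 higher and 680 lower. It was -1.38 for Ndn, 1.08 for Erdr1, 0.73 for the copine gene Cpne1 and -1.27 for Usp26.

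**Figure D3:**
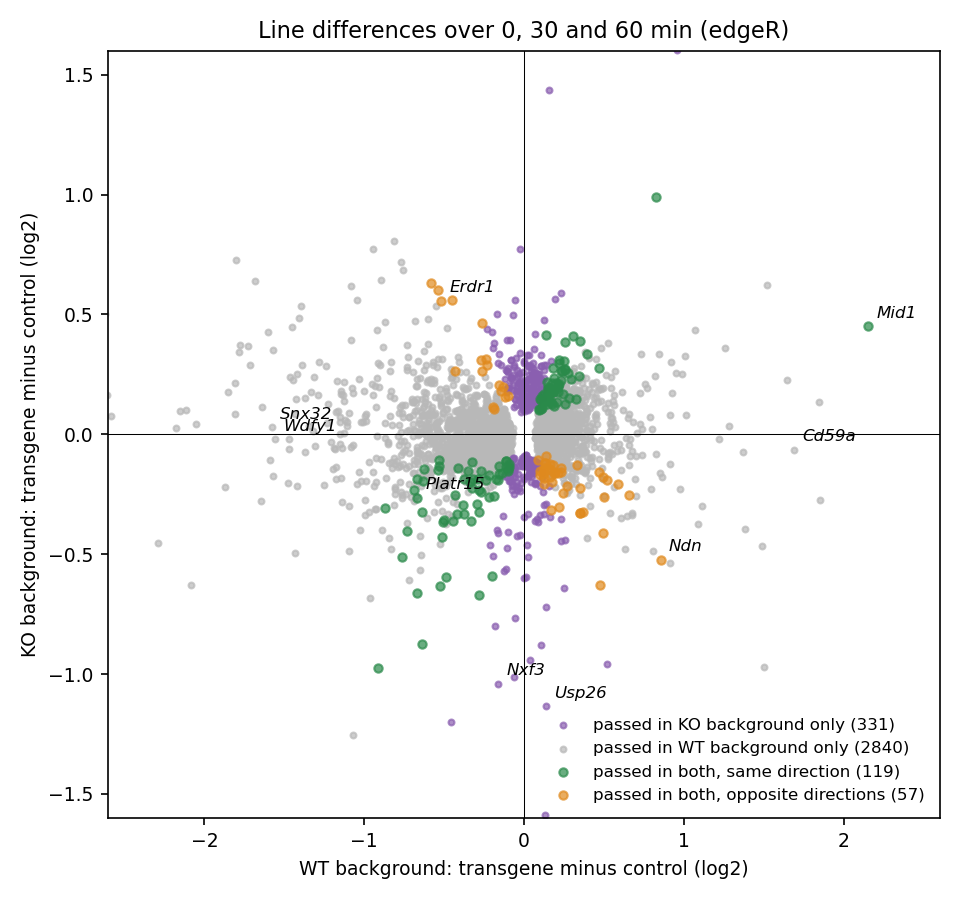
Log2 fold change of transgene over control, mean of 0, 30 and 60 min, for the KO background (y axis) and the WT background (x axis), for the genes that passed in either. Of these, 331 passed in the KO pair only, 2840 in the WT pair only, 119 in both in the same direction and 57 in both in opposite directions; 27 genes, Firre among them, lie outside the axes.

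Genes of the 2-cell-like state differed in the WT pair. Of 14 genes, 12 were lower in the WT transgene line and none higher (median log2 fold change -0.522; 8.27% of all genes were called lower). None of the 14 passed in the KO pair (median -0.032; 2.82% of all genes called). The promoters of 3 Zscan4 copies are printed to show how alike these promoters are. The windows run from 250 bases before to 50 after the annotated start (RefSeq, GRCm38.p6, gene strand): Zscan4c at chr7:11005495-11005794 on the plus strand, Zscan4d at chr7:11166099-11166398 on the minus strand and Zscan4f at chr7:11397665-11397964 on the plus strand. Capitals mark the motif TATAAA, and each sequence is written 5′ to 3′.
Zscan4c: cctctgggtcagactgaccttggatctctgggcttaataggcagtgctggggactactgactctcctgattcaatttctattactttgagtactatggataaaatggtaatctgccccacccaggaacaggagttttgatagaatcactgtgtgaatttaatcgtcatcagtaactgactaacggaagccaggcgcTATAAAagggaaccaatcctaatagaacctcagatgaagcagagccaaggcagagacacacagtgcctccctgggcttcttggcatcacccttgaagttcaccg
Zscan4d: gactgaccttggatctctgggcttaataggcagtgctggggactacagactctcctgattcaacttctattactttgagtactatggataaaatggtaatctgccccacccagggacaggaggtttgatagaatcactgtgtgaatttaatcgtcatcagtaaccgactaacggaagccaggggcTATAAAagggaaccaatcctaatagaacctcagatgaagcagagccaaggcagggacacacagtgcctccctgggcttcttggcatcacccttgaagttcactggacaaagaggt
Zscan4f: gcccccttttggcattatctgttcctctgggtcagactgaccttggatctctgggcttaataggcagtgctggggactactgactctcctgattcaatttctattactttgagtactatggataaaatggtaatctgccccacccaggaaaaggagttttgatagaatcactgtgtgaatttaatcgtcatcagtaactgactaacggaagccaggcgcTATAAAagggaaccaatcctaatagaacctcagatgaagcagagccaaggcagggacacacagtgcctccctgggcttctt
Aligned without gaps over the bases they share, Zscan4c and Zscan4d matched at 281 of 289 bases (97.2%), Zscan4c and Zscan4f at 275 of 277 (99.3%) and Zscan4d and Zscan4f at 259 of 266 (97.4%). TATAAA was present on the gene strand in 8.32% of 32851 windows of the same length, and on either strand in 13.6%. Reads of near-identical gene copies cannot be split with certainty, so the values of single Zscan4 copies are uncertain, as are those of the Tcstv, Usp17l and Pramef copies of the list.

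Zscan4c, a zinc finger gene of the 2-cell embryo, was at 30.7 to 35.7 TPM in the WT transgene line, against 40.5 to 53.2 TPM in the WT control line (-0.48 ± 0.07, adjusted p = 1.55e-07). The ranges did not overlap. The KO difference of Zscan4c was -0.14 ± 0.06 (adjusted p = 0.297). In the WT pair Zscan4f had -0.58 ± 0.07 and Zscan4d -0.36 ± 0.07. Tcstv3, a gene first transcribed at the 2-cell stage, fell by 0.85 ± 0.09 on the log2 scale (adjusted p = 7.28e-11), and Spz1, a transcription factor gene, by 1.21 ± 0.21. Zfp352 (0.00) and Gm4340 (0.02) did not pass. Summed over 3 markers of the state, the level was 69.3 to 86.5 TPM in the KO transgene line and 79.5 to 90.3 TPM in the KO control line, which overlapped. It was 52.2 to 59.6 TPM in the WT transgene line and 67.1 to 84.2 TPM in the WT control line, which did not. In bulk RNA, fewer cells in the state and less RNA per cell cannot be told apart. At 0 min of the long course the list's median was 0.449 in the KO pair and -0.519 in the WT pair.

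Imprinted genes also went different ways. Of 26 tested, none was higher and 6 were lower in the KO pair (median -0.042; 1.33% of all genes called lower). In the WT pair 11 were higher and 6 lower (median 0.057; 8.47% of all genes called higher and 8.27% lower). The maternally expressed noncoding RNAs of the Dlk1-Meg3 cluster were higher together in the WT transgene line, with log2 fold changes of 0.65 for Meg3, 0.73 for Rian and 0.66 for Mirg. The paternally expressed genes Dlk1 (0.48) and Igf2 (0.52), a growth factor gene, were also higher. Meg3, Mirg, Dlk1, Igf2, Peg13, Kcnq1ot1 and Peg3 were named after their values were seen. Lower genes were Peg13 (-0.55), Impact (-0.38), Plagl1 (-0.33), Zrsr1 (-0.33), Kcnq1ot1 (-0.29) and Peg3 (-0.23). Impact (-0.19), Plagl1 (-0.11) and Zrsr1 (-0.23) were lower in the KO transgene line as well, although their KO calls were lost on log2 TPM.

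**Figure D4:**
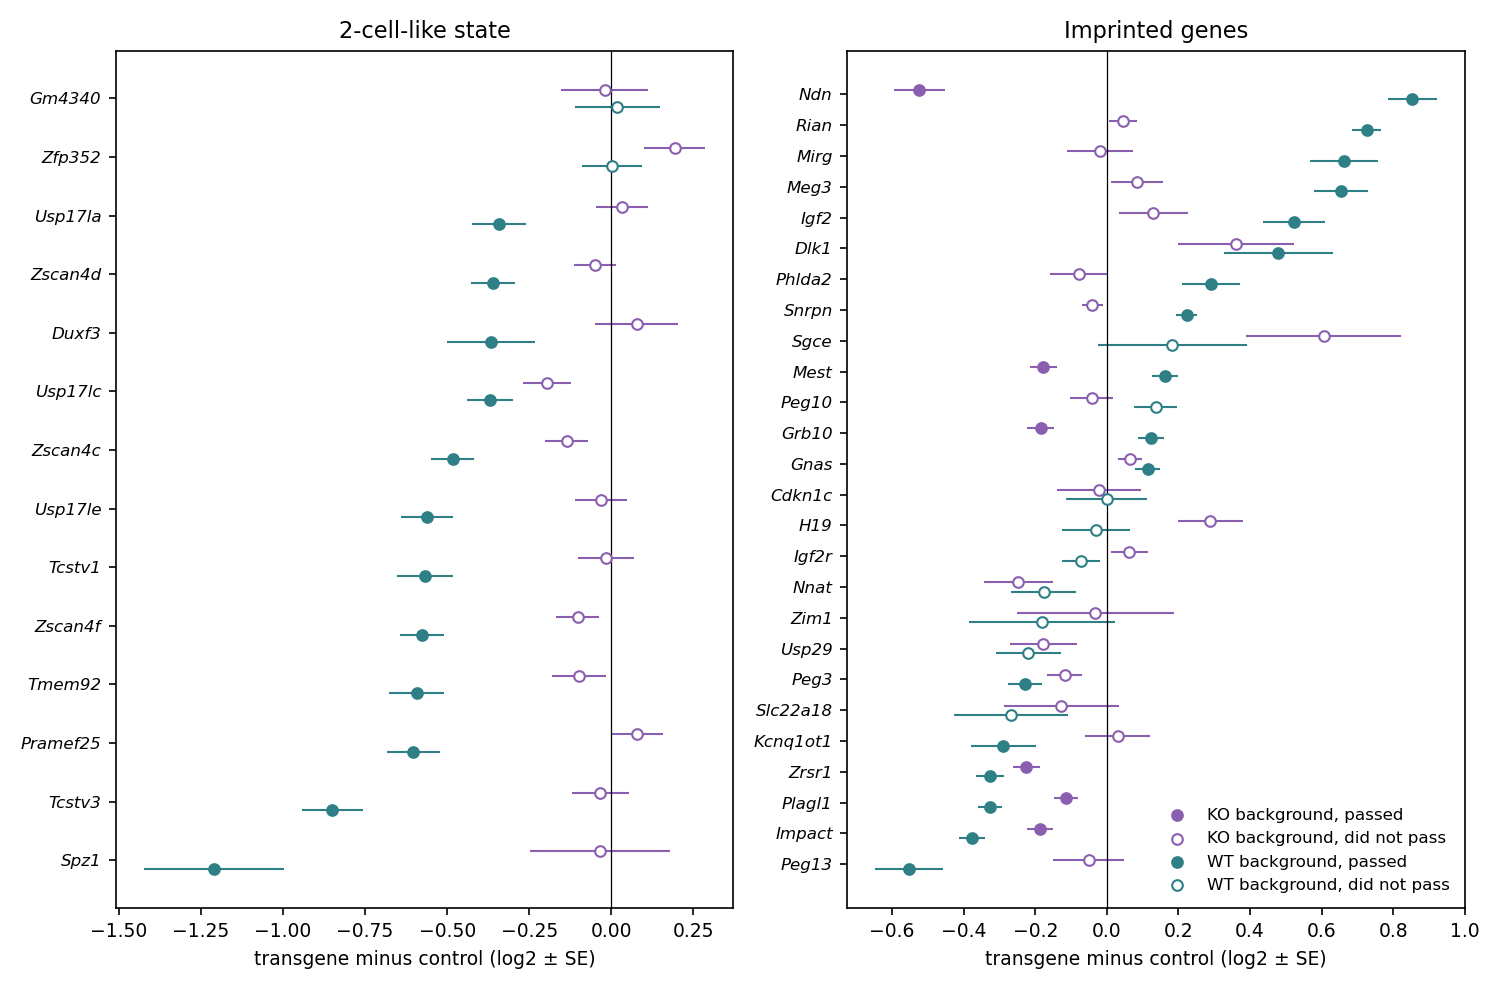
Log2 fold change of transgene over control with its standard error for the 2-cell-like and imprinted genes, in the KO and WT backgrounds; filled points passed the test. In the WT pair 12 of 14 2-cell-like genes were lower, and imprinted genes lay on both sides of 0.

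Pluripotency, stress response and mitochondrially encoded genes are read against the shares of all genes, 1.48% called higher and 1.33% lower in the KO pair, and 8.47% called higher and 8.27% lower in the WT pair. Of 12 general pluripotency genes, 5 were higher and 1 lower in the WT transgene line. The higher ones were led by the chromatin-associated gene Utf1 (0.34) and the Nodal co-receptor gene Tdgf1 (0.20). The KO background had 1 lower, Dppa2 (-0.11). Of 16 naive pluripotency genes, 1 was higher and 2 lower in the WT transgene line (median -0.012). In the KO pair 1 of the 16 was lower, Dppa3. Of 20 genes of the integrated stress response, the WT transgene line had 6 higher and 1 lower, with Atf5, a transcription factor gene of that response, at 0.48 ± 0.07, and none passed in the KO pair. Of 13 genes encoded by mitochondrial DNA, 5 were higher in the WT transgene line (median 0.158) and none passed in the KO pair (median -0.067). At 0 min of the long course the median of the 13 genes was 0.020 in the KO pair and -0.012 in the WT pair. The raised WT median of the first hour was thus not seen there. Genes of the mitochondrial chromosome took 3.45% to 4.3% of the counts in the 24 libraries. In the WT transgene line the share was 4.02% to 4.3% in replicate 2 but 3.68% to 3.93% in replicate 1. The WT control line had 3.62% to 3.96%, so only replicate 2 lay above it. Of the 13 genes, mt-Nd3, a subunit gene of respiratory complex I, had the largest value. It was at 2057 to 3065 TPM in the WT transgene line, against 1029 to 1888 TPM in the WT control line (0.97 ± 0.17, adjusted p = 1.99e-05). Unlike the median, mt-Nd3 was higher in the WT pair at 0 min of the long course too (0.79, adjusted p = 4.85e-04). Its KO difference there was -0.07 (adjusted p = 0.933). The calls of mt-Nd2, mt-Nd6 and mt-Cytb were lost on log2 TPM. In 12 fits that each left out 1 WT library, mt-Nd2 passed in 10, mt-Cytb in 8 and mt-Nd6 in 6.

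Genes linked to Firre itself are set beside the 2.82% of all genes called in the KO pair and the 16.7% called in the WT pair. Of 19 genes of its known protein partners and nuclear architecture, 3 passed in the KO pair, with Lmna, the lamin A and C gene (0.23), and Safb, a nuclear matrix protein gene (0.14), higher and Suz12, a subunit gene of Polycomb complex 2, lower (-0.20), all of them calls that were lost on log2 TPM. None of the 19 passed in the WT pair. Of 13 neighbours of Firre on the X chromosome, Usp26 alone passed in the KO pair and the glypican gene Gpc3 alone in the WT pair (0.18). Of 5 genes at loci that Firre contacts on other chromosomes, 2 passed in each background, Ppp1r10 (0.20) and Slc25a12 in the KO pair and Slc25a12 and Atf4 in the WT pair, where the calls of Slc25a12 and Atf4 were lost in most fits that left out 1 WT library. From 18 genes chosen in earlier work on these data as responding to Firre induction, 1 passed in the KO pair (Dpf2, 0.11) and 7 in the WT pair, 6 of them higher, among them the cadherin gene Cdh3 (0.54) and Impdh1 (0.39), the gene of an enzyme of guanine nucleotide synthesis. Those 18 genes were chosen on these samples and are not independent evidence of a direction.

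Chromosome 11, examined more closely after its values were seen, held 67 of the 240 lower genes of the KO transgene line. Of 1337 genes tested there, 67 were lower and 6 higher (5.46% called, against 2.82% of all genes), the median log2 fold change was -0.034 and 63.6% of values were negative. In the first hour that median and that share did not set it apart. Chromosome X had -0.037 and 64.8% in the KO pair, with 15 of 579 genes lower and 4 higher. The 21 mitochondrial genes had -0.067 and 85.7% there. All 13 windows of 10 Mb along chromosome 11 had a negative median. The median of chromosome 11 minus that of the other chromosomes was -0.035 to -0.006 in the 6 KO transgene libraries and -0.015 to 0.031 in the 6 KO control libraries, so the lines overlapped. From 90 to 330 min the KO median was -0.053 and at 0 min of the long course -0.061. The WT median was 0.024 in the first hour and -0.057 at 0 min of the long course. On the Y chromosome the KO median was 0.071 in the first hour and 0.982 at 0 min of the long course. DNA copy number was not measured here.

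**Figure D5:**
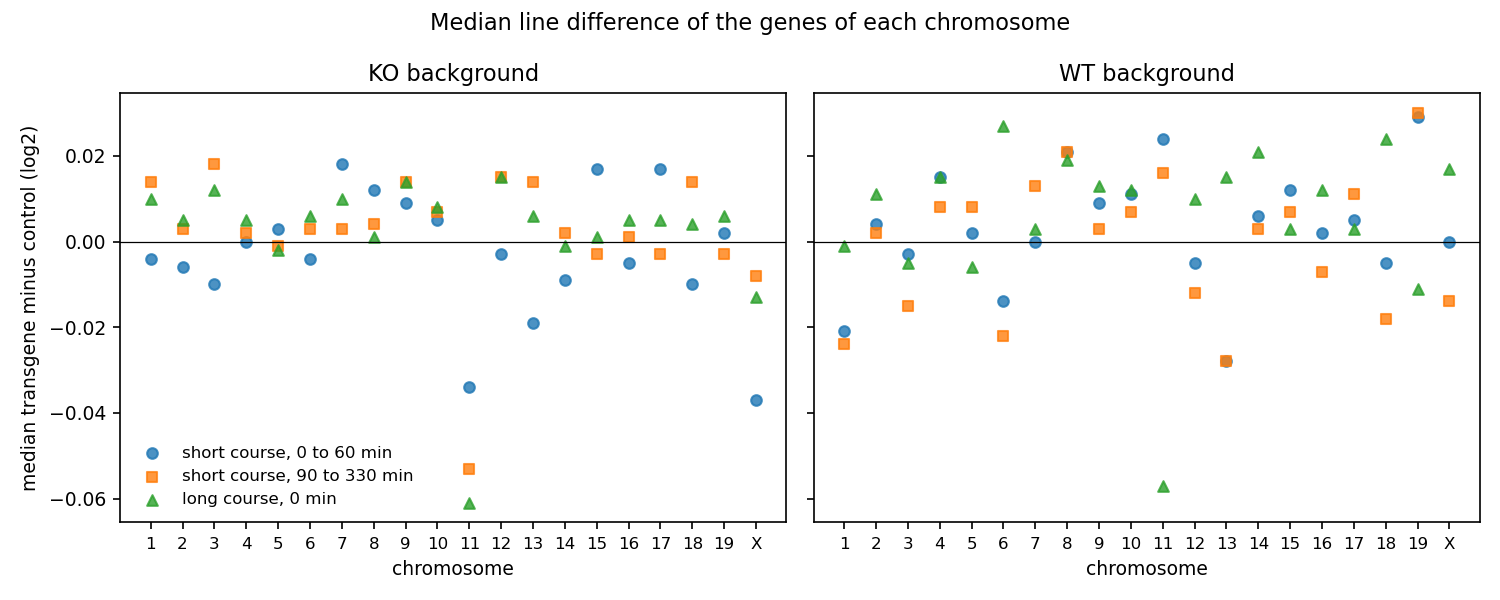
Median log2 fold change of transgene over control for the genes of each chromosome, with the KO background on the left and the WT background on the right; circles are the first hour, squares 90 to 330 min and triangles 0 min of the long course. In the KO pair chromosome 11 lay under 0 in all 3 (-0.034, -0.053 and -0.061). Chromosome Y and the mitochondrial chromosome are not drawn.

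The same line differences were then read in libraries outside the first hour. Over 90 to 330 min of the short course, with more libraries, 2131 genes passed in the KO pair (11.8% called) and 6420 in the WT pair (35.6% called). Of the first-hour genes, 237 in the KO pair (46.7%) and 2388 in the WT pair (79.2%) passed there in the same direction, and 5 and 6 in the opposite one. At 0 min of the long course, 622 genes passed in the KO pair (3.54% called) and 2312 in the WT pair (13.2% called). Of the first-hour genes tested in both courses, 137 of 504 in the KO pair passed in the same direction (27.2%) and 1 in the opposite one. In the WT pair 934 of 2985 did so (31.3%) and 50 in the opposite one.

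In both backgrounds and in both courses, 34 genes passed in the same direction. With a standard symbol these included Firre, Mid1, Cyb5b, Dpp4, Rab4a, Tns1, Csrp1, Agrn, Zrsr1, Platr15, Noct, Ddx3y, Serpinh1, Rbpms2 and Dhx33. Gm47283, which has a provisional symbol and was singled out after its values were seen, was higher, with a log2 fold change of 0.99 ± 0.08 in the KO pair and 0.83 ± 0.08 in the WT pair. Gm47283 was at 444.7 to 539.1 TPM in the KO transgene line, against 259.9 to 321.8 TPM in the KO control line. At 0 min of the long course Cyb5b fell by 0.26 in the KO pair and by 0.11 in the WT pair, and Mid1 had 1.26 there in the KO pair and 2.46 in the WT pair. Ndn kept opposite signs (-0.57 in the KO pair, 0.69 in the WT pair), as did Erdr1 (0.46 and -0.56) and the imprinted gene Grb10 (-0.24 and 0.17). The other named genes with opposite signs in the first hour did not pass in both pairs there. The p53 target Ei24 (0.01 and 0.04) and Lmod1 (0.56 and -0.26) passed in neither pair. Cpne1 passed in the KO pair (0.25, adjusted p = 0.0292) but not in the WT pair (-0.10, adjusted p = 0.404).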

How the data were processed

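Poly(A) RNA-seq libraries of mouse embryonic stem cell lines were analysed from a count table and a TPM table. Per the submitters' processing notes, reads were quantified with Salmon 1.5.2 and the build was mm10; the library kit does not mark strand, so antisense and overlapping genes cannot be told apart. The deposited values are estimated counts per gene as summed by the authors before deposit (76% exactly whole), and were rounded here. The deposited TPM values, which sum to 932698 to 945967 per library, served for levels and 1 alternative only. Gene positions came from GENCODE M21 (40140 of 40914 identifiers matched).

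All 96 short-course libraries were fitted with edgeR 4.0.16 (R 4.3.3) with 1 coefficient per line and time, TMM normalization, filterByExpr (minimum count 10) and robust quasi-likelihood tests. Line differences are the mean over 0, 30 and 60 min of transgene minus control, on the log2 scale, with Benjamini-Hochberg adjustment over 18009 genes and a threshold of 0.05. The change within the first hour was an F test over both later times. The long course was fitted apart (17565 genes). Alternatives used limma 3.58.1 on log2(TPM + 0.5), which understates changes of low genes, DESeq2 1.42.0, other filters, other library sets and the omission of single libraries. The scripts were tested on simulated data. Replicate libraries differed by more than sampling noise.

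Firre was always named. Among passing genes with no provisional symbol and a mean of 1 CPM or more, the 10 largest each way per background, the 15 largest shared each way, the 5 largest each way for the difference between backgrounds and for the change, and up to 4 per gene list were eligible; other genes are named where a count is small or as members of a list, after their values were seen. The groups, gene lists and rules were chosen with earlier results of these data known. Same-numbered replicates correlated by -0.116 to 0.215 in their deviations, so the numbers were not taken to pair libraries. Lanes and culture batches are not given in the sources used here, so none could be fitted as a batch. Values of some single genes that met the rule are not reported here.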

Additional observations from a re-analysis of the deposited data

Results flagged for a closer look

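The line difference is transgene over control, mean of 0, 30 and 60 min. By edgeR's test of the KO minus WT difference itself, it differed between the backgrounds in 69 of 149 named genes. Over all genes 7.82% were called. The named genes were picked because they passed a test, some of them this one, so their share is raised by the choice. Of the 69 genes, 15 were the 5 largest each way or stood among the genes that passed in both backgrounds with opposite signs. The KO minus WT difference was 2.80 for Firre (adjusted p = 9.05e-19), whose level in the KO control line is close to 0, and -1.70 for Mid1 (adjusted p = 1.1e-27). Wdfy1 had 1.54 (adjusted p = 7.63e-28), Snx32 1.61 (adjusted p = 4.28e-09), Pramef17 1.27 (adjusted p = 4.06e-06) and Foxn4 1.11 (adjusted p = 4.07e-06), all of which were lower in the WT transgene line than in the WT control line. Cd59a had -1.75 (adjusted p = 4.08e-09) and mt-Nd3 -1.20 (adjusted p = 4.06e-04), both higher in the WT transgene line. Usp26 had -1.27 (adjusted p = 5.37e-15), in the first hour from the KO lines. At 0 min of the long course its line difference was -0.41 in the KO pair and -1.40 in the WT pair.

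Genes with opposite signs in the backgrounds were Ndn at -1.38 (adjusted p = 1.25e-17), Erdr1 at 1.08 (adjusted p = 1.19e-05), Cpne1 at 0.73 (adjusted p = 1.84e-07) and Lmod1 at 1.01 (adjusted p = 7.2e-04). The opposite signs of Lmod1 are less firm, since its call passed in 8 of 12 fits that left out 1 KO library and in 6 of 12 that left out 1 WT library. The apoptosis-related p53 target Ei24 had -0.23 (adjusted p = 9.32e-07) and the imprinted adaptor gene Grb10 -0.31 (adjusted p = 2.46e-05). Groups of 2 libraries per time were too small to test a single library as an outlier.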

How the results depend on the processing

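Counts are given as KO background, WT background, KO minus WT difference and genes shared in direction, against 507, 3016, 1408 and 119. With limma on log2 TPM they were 49, 1421, 602 and 18. A log2 size of at least 0.58 left 34 and 409 genes and 6 shared. From the 24 first-hour libraries alone they were 230 (KO) and 63 (shared), and from the 12 libraries of a background alone 94 (KO) and 34 (shared). Without 0 min they were 102, 1590, 495 and 32; without 30 min 357, 1711, 1019 and 55; without 60 min 137, 1824, 579 and 36. With 1 library per line and time in an additive fit, they were 263, 3638, 1945 and 93 without replicate 1, and 33, 505, 173 and 7 without replicate 2. DESeq2 gave 554, 2671, 1242 and 135.

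Leaving out 1 library at a time gave 201 to 626 genes in the KO background, 1918 to 3259 in the WT background, 1054 to 1378 for the difference and 59 to 165 shared. The KO count was 314 without the KO control 0 min replicate 1, 303 without the KO control 30 min replicate 2 and 306 without the KO control 60 min replicate 2. It was 201, 261 and 275, with 59, 70 and 76 shared, without the KO transgene 0 min replicate 1, 30 min replicate 2 and 60 min replicate 1. The WT count was 1918 without the WT control 0 min replicate 2. In every such fit, 141 KO genes, 1419 WT genes, 722 of the difference and 39 shared genes passed.

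The change within the first hour, 2 genes in each background, became 119 (KO) and 76 (WT) with no filter on low counts, where very low genes enter. Leaving out 1 library gave 1 to 2 (KO) and 1 to 3 (WT). It was 1 gene in each with the 24 libraries and with DESeq2, and 1 in the WT background with 12 libraries. With the replicate number as a block the counts were 678, 3469, 1711 and 173, and 2 in each background for the change; on 24 libraries the block gave 539, 3165, 1469 and 142, and 1 in each. Same-numbered libraries of different lines correlated by -0.116 to 0.215, so the block is not taken as a pairing of lines. The sign of 1 named value reversed, Gclc in the WT background (0.003 without replicate 2). Causes of these shifts were not tested. The DESeq2 likelihood ratio test of the change was not run.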

Other observations

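Some genes had another level in the 0 min libraries of the long course than in the first hour of the short course, in lines with the same label; the courses were fitted apart and the difference was not tested. Usp26 was at 12.5 to 14.1 TPM in the KO transgene line and 16.9 to 17.6 TPM in the KO control line of the long course, above the 1.91 to 2.98 TPM and 4.45 to 5.89 TPM of the short course. Its log2 fold change in the long course was -0.41 between the KO lines and -1.40 between the WT lines. The KO control line had 5.2 to 5.9 TPM of Mid1 in the long course and 17.2 to 18.6 TPM in the short course. Dppa3 was at 55.8 to 59.2 TPM in that line in the long course and 11.5 to 14.7 TPM in the short course. Ddx3y was at 10.1 to 10.4 TPM there in the long course and 32.3 to 38.9 TPM in the short course, and the median difference of 7 Y-linked genes in the KO background was 1.03 in the long course.

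Other gene lists stand beside 2.82% of all genes called between the KO lines and 16.7% between the WT lines. Of 20 genes of the G1/S phase, none passed between the KO lines, and 1 was higher and 1 lower in the WT transgene line. Of 12 heat shock genes, none passed between the KO lines, and 3 were higher in the WT transgene line (Hspa1b, Hsph1 and Dnajb1), calls that were lost on log2 TPM. Of 17 genes of glycolysis and hypoxia, 1 was higher in the KO transgene line, and 3 were higher and 3 lower in the WT transgene line. Of 12 NRF2 antioxidant genes, the KO transgene line had 2 lower, and 2 were higher and 3 lower in the WT transgene line. Among 16 p53 targets, 3 were lower in the KO transgene line and 2 higher and 4 lower in the WT transgene line. Of 18 cholesterol synthesis genes, 1 was higher in the KO background, and 1 was higher and 4 lower in the WT background.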
